A study of Sorghum bicolor with 12 samples.

Results

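The drought response of wild-type sorghum roots was described by setting 3 libraries of the line NIL-WT-72 under drought against 3 libraries of the same line under water, 6 of the 12 libraries of the study. All 20818 gene identifiers of the deposited count table enter the comparison. Sorghum bicolor is a cereal grown where rain is scarce. The plants were mature, and under drought the soil was held at 30% of field capacity, the amount of water a soil retains after draining. NIL-WT-72 comes from an EMS-mutagenized family after backcrossing (BC2F3) and lacks the base change in the brassinosteroid receptor SbBRI1 that its sister line NIL-bri1-72 carries. The submitters assume that both are near isogenic. NIL-WT-72 is thus 1 line, wild type at the receptor, and other changes from the mutagenesis were not examined here. The study was made to find early targets of SbBES1, a transcription factor downstream of the receptor. The labels do not say how many plants went into a library or how old they were.

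When soil dries, roots are the organ that meets the water deficit first. Abscisic acid accumulates, and in the cereals studied it switches on kinases and transcription factors that raise protective proteins, compatible solutes and water channels. Growth genes, among them those of cell wall loosening, are commonly turned down, and brassinosteroids act on the same growth programme. The deposited identifiers are not paired with names, and 0 of them matched the 32945-gene RefSeq table of sorghum. No gene is therefore given a function, the root label could not be checked against marker genes, and at most 2 identifiers in each direction are named. Genes are described below by their levels, their size of change and the libraries that carry it. In whole roots, fewer cells of a type and less RNA per cell cannot be told apart.

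The libraries of this line held 18640601 to 31014782 counts. The deposited table lists no count of 0, and its lowest value in a library was 0.379 to 0.429 CPM, in which each count is divided by its library's total and scaled alike. A gene that is silent in 1 of the 12 libraries is therefore not analysed here, and this includes any gene that drought switched on from nothing or shut off fully. In NIL-WT-72, 1410 genes (6.77%) had under 1 CPM in at least 1 library and lay close to that floor.

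Watered replicates 1 and 3 stood apart from each other before any gene was tested. Over all genes, the root-mean-square difference of watered replicates 1 and 3 was 0.688 in log2 CPM, the widest of the 15 pairs of libraries. The widest difference between a droughted and a watered library was 0.674, for drought replicate 1 and water replicate 3. Drought replicates 1 and 2 were the closest pair, at 0.328. Drought replicate 3 was 0.429 from drought replicate 2, 0.439 from water replicate 2 and 0.448 from drought replicate 1. On the first principal component of the 6 libraries, which held 39.3% of their variance, the watered replicates lay at 18.1, -18.7 and -57.1 and the droughted replicates at 35.3, 24.5 and -2.19. Water replicate 1 lay among the droughted libraries on this axis, and the groups overlapped. On the second component, which held 31.2%, water replicate 1 lay apart at -58.3, the other watered replicates at 7.46 and 4.23 and the droughted replicates at 26.1, 21.0 and -0.489. Water replicate 1 was 0.520 to 0.615 from the droughted libraries, farther than water replicate 2 was from each of them (0.439 to 0.522). Whether libraries of this line were exchanged was not tested.

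**Figure D1:**
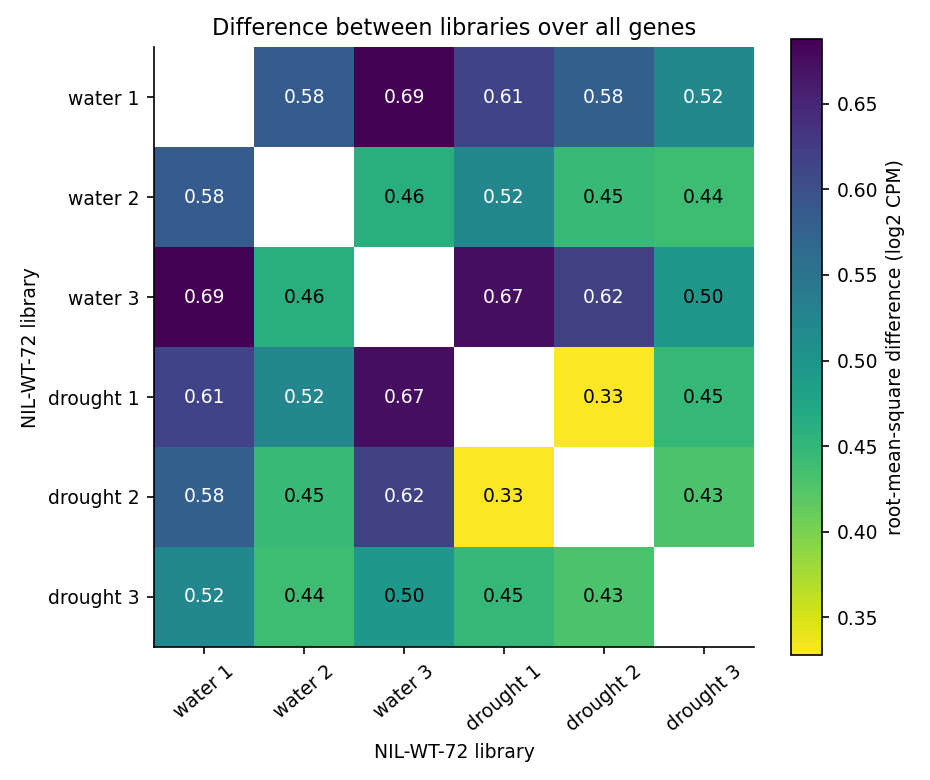
Root-mean-square difference in log2 CPM over all 20818 genes between each pair of the 6 NIL-WT-72 libraries, with the value printed in each cell. The darkest cell joins water replicates 1 and 3 (0.688), and the lightest joins drought replicates 1 and 2 (0.328).

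The watered roots were the more variable group gene by gene. The median standard deviation of log2 CPM over 3 replicates was 0.222 in water and 0.145 in drought, and 67.4% of genes (14029) varied more in water. Water replicate 3 was the library farthest from the watered mean for 41.0% of genes, water replicate 1 for 38.7% and water replicate 2 for 20.2%. Drought replicate 3 was the farthest from the droughted mean for 42.1% of genes.

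Drought lowered 3 genes and raised 0 in NIL-WT-72 at the threshold set for the comparison, a Benjamini-Hochberg adjusted p below 0.05 in edgeR's quasi-likelihood test. That is 0.0144% of the genes tested. An unadjusted p below 0.05 was found for 1968 genes (9.45%), of which 933 were higher (4.48%) and 1035 lower (4.97%). By other tools the count of adjusted calls was 305 with DESeq2 (1.47%) and 1 with limma voom. The fit shared 1 estimate of the spread over all 12 libraries. With a library of this line left out, the edgeR count was 0 without drought replicate 1, drought replicate 2 or water replicate 3, and 1 without water replicate 2. It was 16 without water replicate 1 and 55 without drought replicate 3.

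Sobic.006G172601, on chromosome 6, had the lowest p of all genes. It measured 361.5, 344.4 and 385.9 CPM in the 3 watered libraries and 103.8, 104.5 and 118.1 CPM in the 3 droughted ones. The groups lay far apart relative to their own spread, water replicates 1 and 3 included. The mean fell from 363.9 ± 20.8 to 108.8 ± 8.09 CPM (SD, n = 3 in each group). On the log2 scale drought minus water was -1.74, with an SE of 0.185, a 95% interval from -2.15 to -1.33 and an edgeR adjusted p of 0.0264, and it passed the threshold under 17 of 22 alternatives. Its adjusted p was 0.318 and 0.175 without drought replicates 1 and 2, and 0.0599 and 0.151 without water replicates 2 and 3. It was 0.0677 without drought replicate 2 of NIL-bri1-72. Over the 22 alternatives its log2 fold change stayed between -1.81 and -1.70.

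Sobic.009G004900, on chromosome 9, was a far less abundant transcript in drought. Watered replicates 1, 2 and 3 held it at 47.2, 25.3 and 62.9 CPM, and the droughted replicates at 2.26, 3.06 and 5.13 CPM. Every droughted library lay below every watered one, and drought replicate 3 was the highest of the droughted libraries. The mean fell from 45.1 ± 18.9 to 3.48 ± 1.48 CPM (SD, n = 3). This is -3.70 on the log2 scale, with an SE of 0.438, a 95% interval from -4.66 to -2.74 and an edgeR adjusted p of 0.0354. The counts behind the droughted values were 65, 96 and 139 reads, well above the smallest counts of those libraries, which were 11 or 12. The call was kept under 14 of 22 alternatives and was lost without drought replicate 1 (adjusted p = 0.334) or drought replicate 2 (0.334) or water replicate 3 (0.151), with voom (0.0753) and with only the 6 libraries compared (0.237). It was also lost without drought replicate 2 (0.0677) or water replicate 2 (0.0733) of NIL-bri1-72.

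The third gene that fell lies on chromosome 5. Its watered libraries held 213, 216 and 338 reads and its droughted libraries 22, 12 and 43. The count of 12 was the smallest of any gene in drought replicate 2, so that value sat at the floor of the deposited table. These are 8.27, 11.4 and 14.5 CPM under water against 0.765, 0.382 and 1.59 CPM under drought, and here too drought replicate 3 was the highest droughted library. On the log2 scale it fell by 3.65, with an SE of 0.448 and an edgeR adjusted p of 0.0354. It passed under 11 of 22 alternatives, with an adjusted p of up to 0.334.

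No gene that was higher in drought passed the edgeR threshold. The lowest p among those with at least 10 CPM and separated groups was that of Sobic.002G421300 on chromosome 2. Watered roots held it at 114.9, 76.03 and 78.8 CPM, and droughted roots at 195.8, 225.8 and 181.4 CPM. Water replicate 1 was the watered library nearest to the droughted ones. Its log2 fold change of 1.16 had an SE of 0.166, a 95% interval from 0.795 to 1.53 and an edgeR adjusted p of 0.0697. The adjusted p was below the threshold by DESeq2 (6.4e-07), with quality weights (0.00418) and without water replicate 1 (0.0167), drought replicate 3 (0.0337) or both (0.00903). It reached up to 0.406 over the 22 alternatives.

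Sobic.003G397400 on chromosome 3 was scarce in watered roots. Watered replicates reached 1.86, 0.582 and 1.72 CPM and droughted replicates 7.999, 16.0 and 12.8 CPM, with no overlap. Its log2 fold change of 3.12 had an SE of 0.490, a 95% interval from 2.04 to 4.19 and an edgeR adjusted p of 0.0984, and 3 of 22 alternatives brought its adjusted p below the threshold. The watered value of replicate 2 rested on 11 reads, near the smallest count of that library, which was 8.

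**Figure D2:**
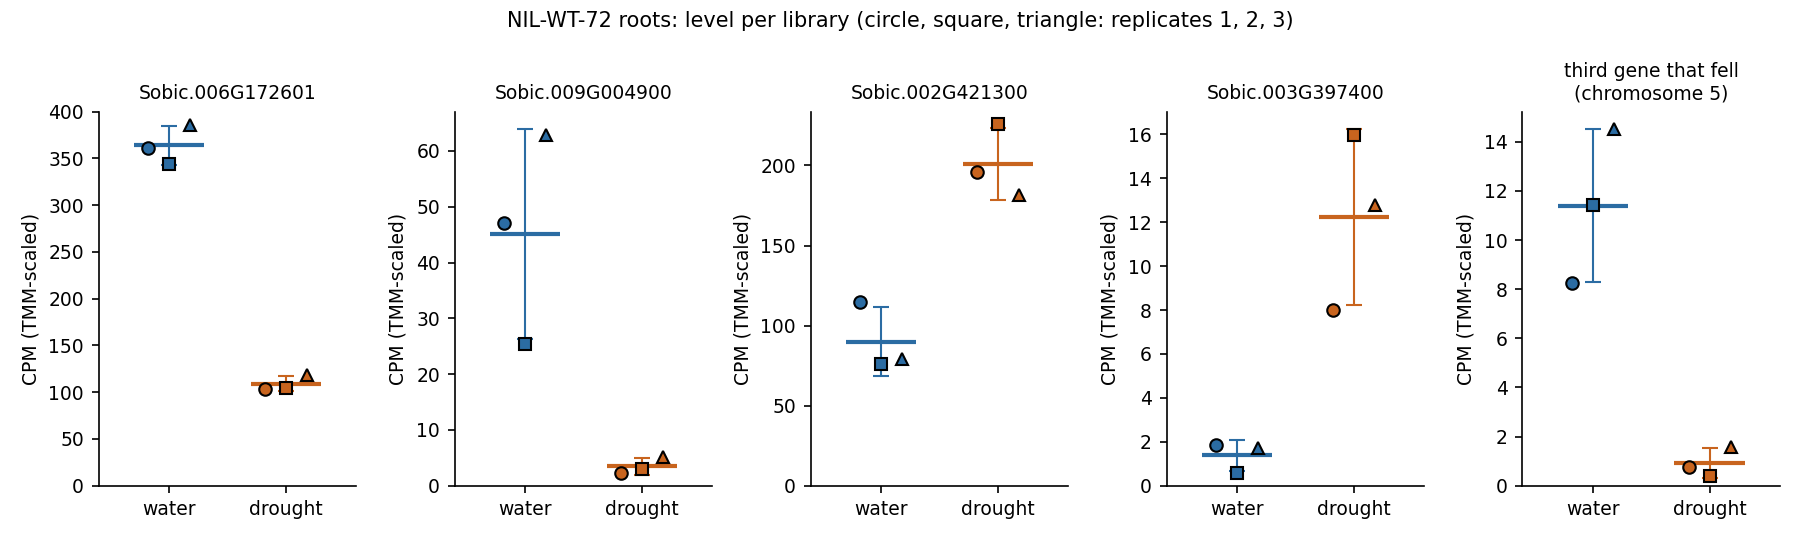
Level in CPM, scaled by TMM factors, of 5 genes in each NIL-WT-72 library. Circles, squares and triangles are replicates 1, 2 and 3, the horizontal lines are group means and the bars are SD (n = 3). In each panel the watered and droughted libraries do not overlap. Sobic.006G172601, Sobic.009G004900 and the third gene passed the edgeR threshold, and the 2 higher genes did not.

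The same genes were measured in NIL-bri1-72. There Sobic.006G172601 had means of 329.3 ± 68.9 CPM under water and 132.3 ± 30.3 CPM under drought (SD, n = 3). Those of Sobic.009G004900 were 26.97 ± 8.09 and 3.41 ± 1.30 CPM. Sobic.003G397400 had means of 1.42 ± 0.677 and 7.29 ± 2.86 CPM. Sobic.002G421300 had means of 95.5 ± 13.1 and 116.8 ± 10.7 CPM, a log2 fold change of 0.29 against 1.16 in NIL-WT-72. In NIL-bri1-72 none of these drought differences passed the edgeR threshold. The edgeR adjusted p there was 0.0706 for Sobic.006G172601, 0.0760 for Sobic.009G004900, 0.189 for Sobic.003G397400 and 0.755 for Sobic.002G421300. The test of the difference between the lines gave an adjusted p of 1.00 for each of them (edgeR interaction), so a different response was not shown, for Sobic.002G421300 included.

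Most genes of the root changed little. Over all genes the median log2 fold change was -0.0046 and its standard deviation was 0.394, with 87.4% of genes (18195) within 0.5 of 0. The median standard error was 0.176. For 79.9% of genes (16635) the whole 95% interval lay between -1 and 1, so that a 2-fold change in either direction lay outside it. That share rose with abundance. It was 41.6% of the 363 genes under 1 CPM, 63.7% of the 7170 genes at 1 to 10 CPM, 88.6% of the 10935 genes at 10 to 100 CPM and 94.5% of the 2305 genes at 100 to 1000 CPM. All 45 genes over 1000 CPM had such an interval (100%). Those 45 genes held 7.35% of counts in water and 7.89% in drought, and their median log2 fold change was 0.13.

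Large changes pointed downward more often than upward. A fitted decrease of at least 2-fold was seen for 487 genes (2.34%) and an increase of that size for 174 genes (0.836%), and log2 fold changes ran from -6.24 to 3.33. Changes of at least 4-fold numbered 75 lower and 21 higher. Of the 487 lower genes, 332 had an unadjusted p below 0.05 and 185 had groups that did not overlap. Of the 174 higher genes these numbers were 157 and 129. For 108 of the 174 higher genes, water replicate 3 was the lowest watered library. Water replicate 1 was the highest watered library for 257 of the 487 lower genes. Without that library 371 genes were at least 2-fold lower, of which 246 were among the 487, and 334 were at least 2-fold higher. Without drought replicate 3 the counts were 780 lower and 252 higher. With both of these libraries left out, the counts were 685 lower and 447 higher. The surplus of lower genes was thus much smaller when water replicate 1 alone was left out.

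**Figure D3:**
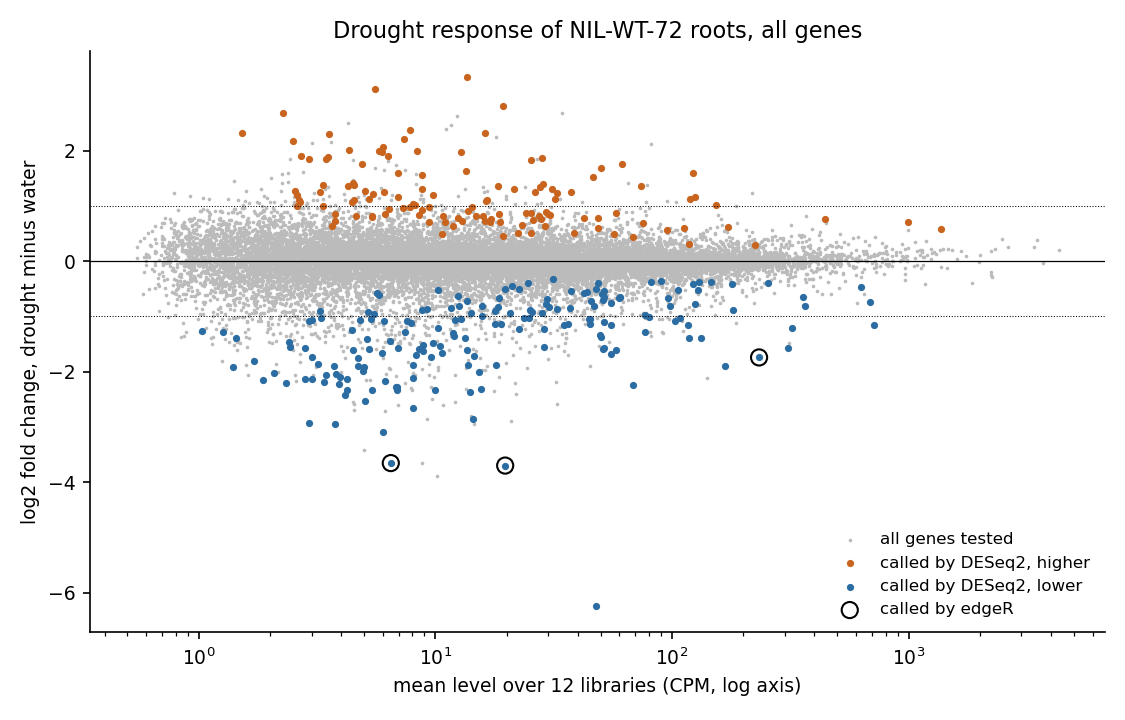
Log2 fold change in NIL-WT-72, drought minus water, against the mean level over 12 libraries in CPM on a log axis, 1 point per gene. Orange and blue points are the 126 higher and 179 lower genes called by DESeq2, circles mark the 3 genes called by edgeR, and dotted lines mark a 2-fold change. Points below the lower line outnumber those above the upper line, 487 against 174.

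The number of 2-fold differences was then counted for single libraries. Each library was set against the mean of 2 watered libraries, which for a watered library are the other 2. Drought replicate 1 had 340 to 612 genes at least 2-fold higher and 817 to 955 at least 2-fold lower, depending on the pair of watered libraries. Drought replicate 2 had 261 to 466 higher and 537 to 677 lower. Drought replicate 3 had 234 to 400 higher and 231 to 335 lower. The watered libraries differed among themselves on as many genes. Water replicate 1 had 1042 genes higher and 408 lower than the other watered libraries, water replicate 3 had 351 and 805, and water replicate 2 had 177 and 501. By this measure drought replicate 3 was nearer to the watered libraries (533 to 636 genes) than the watered libraries were to each other (678 to 1450 genes).

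**Figure D4:**
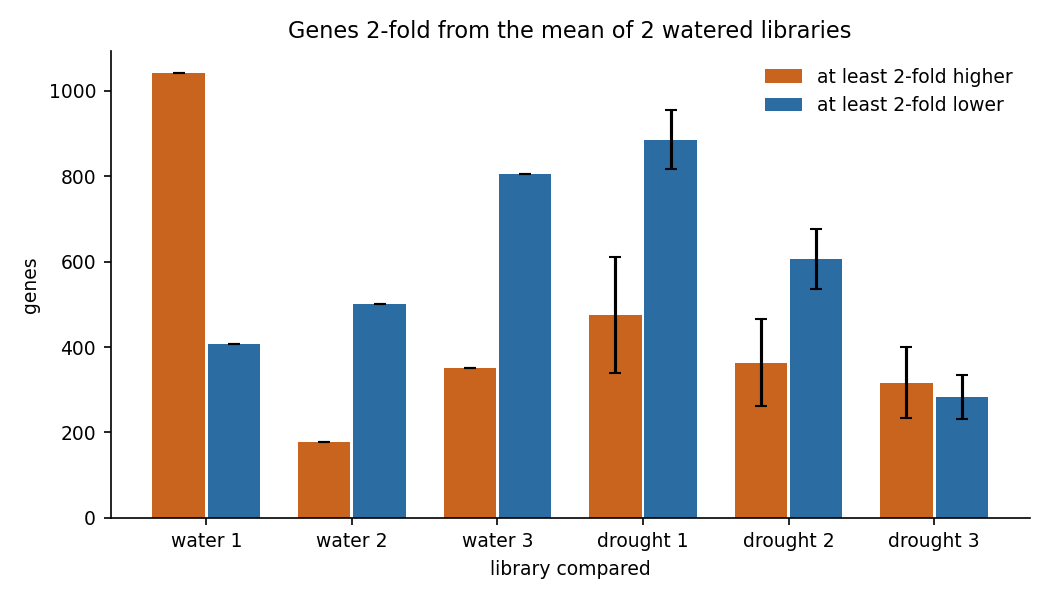
Number of genes at least 2-fold higher (orange) or lower (blue) in each NIL-WT-72 library than the mean of 2 watered libraries. For droughted libraries the bar is the middle of the range over the 3 pairs of watered libraries and the line is that range. Water replicate 1 reaches 1042 higher genes, and drought replicate 3 has the fewest genes in all.

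Genes whose 3 droughted libraries all lay outside the watered range made up 12.3% of those tested, 1389 above (6.67%) and 1175 below (5.64%). With only 3 libraries in each group many genes separate in this way without any effect of drought. These are therefore not counts of genes that responded. Separated genes above water were mostly modest changes, with a median log2 fold change of 0.45, and 129 were at least 2-fold. For those below water the median was -0.36 and 185 were at least 2-fold. Drought replicate 3 was the droughted library nearest to water for 726 of the 1389 genes above and for 621 of the 1175 below. Drought replicate 1 was the nearest for 249 and 218. Only 50 genes (0.240%) were at least 2-fold above the watered mean in all 3 droughted libraries, and 84 (0.403%) were as far below it. Separated genes below 1 CPM were mostly above water, 29 (7.99% of that class) against 8 (2.20%). At 1 to 10 CPM 629 lay above (8.77%) and 338 below (4.71%), and at 10 to 100 CPM 651 (5.95%) and 675 (6.17%). Among genes at 100 to 1000 CPM 76 lay above (3.30%) and 154 below (6.68%). Of the 45 genes over 1000 CPM 4 lay above and 0 below. The floor of the deposited table limits how low a value below 1 CPM can lie, and its part in these shares was not tested.

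DESeq2, an alternative test, drew a wider outline of the response. It called 305 genes (1.47%), 126 higher (0.605%) and 179 lower (0.860%). The higher genes had a median log2 fold change of 1.05 and moved from a median level of 8.47 CPM in water to 18.6 CPM in drought. Of them 68 were at least 2-fold and 12 at least 4-fold higher. The lower genes had a median log2 fold change of -1.16 and went from 22.5 to 9.62 CPM, with 115 at least 2-fold and 32 at least 4-fold lower. The groups did not overlap for 120 of the 126 higher and 174 of the 179 lower genes, which the selection favours. All 305 had an edgeR unadjusted p below 0.05, and their edgeR adjusted p reached 0.331.

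Those calls, too, depended on single libraries. DESeq2 called 63 genes without drought replicate 1, 88 without drought replicate 2 and 162 without water replicate 3. It called 635 without water replicate 1, 687 without drought replicate 3 and 1120 without both of the latter. Of the 305 genes, 254 were among those 1120. The pair left out joins the libraries whose single removal raised the count most, and no other pair was left out. The 1120 calls are thus no independent support for the 305. A set of 101 genes was called by DESeq2, by voom with library quality weights and by edgeR without water replicate 1 and drought replicate 3, out of 472 genes called by at least 1 of these. These 101 genes were chosen after the values were seen and are given as a description. They were 28 higher genes, with a median log2 fold change of 1.25, and 73 lower genes, with a median of -1.53. The lower ones went from a median of 19.3 CPM in water to 6.82 CPM in drought.

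Genes picked in the other line gave a view of the NIL-WT-72 libraries that did not depend on choosing genes in them. A DESeq2 fit to the 6 NIL-bri1-72 libraries alone called 149 genes higher and 209 lower in drought. In NIL-WT-72, the 149 genes had a median log2 fold change of 0.69, beside -0.0046 over all genes. Of the 149, 139 were above 0, against 10221 of all 20818 genes. The groups of the 149 genes were separated upward for 85 (57%, against 6.67% of all genes) and downward for 0. The 209 lower genes had a median of -1.09 and all 209 were below 0, against 50.9% of all genes. Their groups were separated downward for 129 (61.7%, against 5.64% of all genes) and upward for 0. The edgeR test called 3 of these 209 genes in NIL-WT-72, beside 0.0144% of all genes called lower. DESeq2 called 46 of the 149 higher, beside 0.605% of all genes, and 100 of the 209 lower, beside 0.860%. Both tests took the spread of a gene from all 12 libraries, those of NIL-bri1-72 included. These calls, unlike the medians and the overlap, were therefore not independent of how the lists were chosen. Genes in such lists are not independent replicates, and no test was made over them.

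These lists also ranked the wild-type libraries. The median of the 209 lower genes, as log2 CPM minus the watered mean, was -1.46 in drought replicate 1, -1.33 in drought replicate 2 and -0.59 in drought replicate 3. It was -0.23, -0.09 and 0.28 in water replicates 1, 2 and 3. The genes lowered in the other line were thus least lowered in drought replicate 3, and lowest among watered roots in replicate 1. The 149 higher genes had medians of 0.95, 0.69 and 0.59 in the droughted replicates and 0.28, -0.12 and -0.13 in the watered ones. Water replicate 1 was again the watered library nearest to drought. Without water replicate 1 the medians of the log2 fold change in NIL-WT-72 were 0.94 and -1.19, and without drought replicate 3 they were 0.71 and -1.46. The labels give neither the water status of single plants nor the time of sampling.

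**Figure D5:**
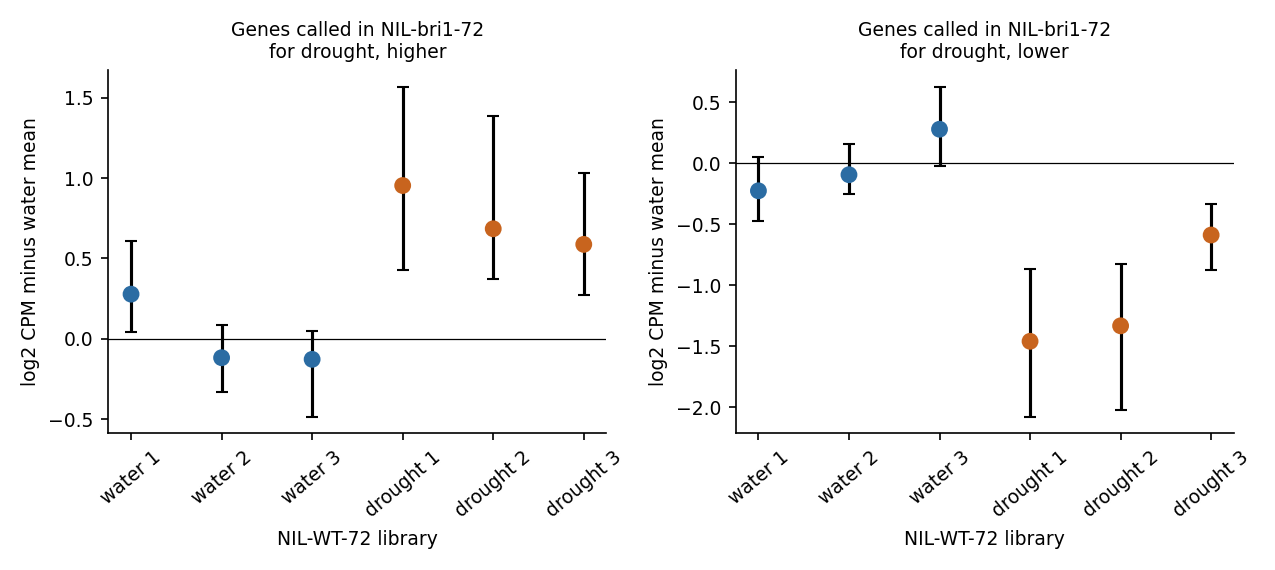
Log2 CPM minus the mean of the 3 watered NIL-WT-72 libraries, for 149 genes called higher (left) and 209 called lower (right) for drought in NIL-bri1-72 by DESeq2. Points are medians over genes and bars are quartiles. All 3 droughted libraries lie beyond all 3 watered ones in both panels, and drought replicate 3 is the nearest of them to water.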

How the data were processed

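Root RNA was sequenced from stranded mRNA libraries as paired reads, per the labels' protocols. Raw read counts per gene identifier were deposited as a single table. The submitters' processing notes list HISAT2 2.1.0, featureCounts 1.6.2, Trimmomatic 0.38 and FastQC 0.11.2. Their settings, the genome build, the annotation, the use of strand and the filter on low genes were not given in the sources used here. Reads of overlapping, antisense or near-identical genes may therefore be shared. Groups and replicate numbers came from sample titles. The series design calls the replicates biological.

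The test was run in R 4.3.3 with edgeR 4.0.16: filterByExpr (which kept 20818 genes), TMM scaling and a quasi-likelihood fit of 4 group means to 12 libraries. The contrast was NIL-WT-72 drought minus water. The biological coefficient of variation was 0.209. Standard errors were taken as the log2 fold change, without sign, over the root of F, and 95% intervals used 11.1 degrees of freedom. CPM use TMM-scaled totals, except where the floor of the table and shares of counts are given. Log2 CPM used a prior count of 2. DESeq2 1.42.0 and limma 3.58.1 were alternatives. The members and lists were chosen with earlier results of these data known. Lists based on product descriptions could not be applied, nor could promoter motifs. Named genes were at most 2 per direction, with the lowest edgeR p among those with at least 10 CPM in 1 group and no overlap. Chromosome numbers were read from the identifiers by convention and not checked.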

Additional observations from a re-analysis of the deposited data

How the results depend on the processing

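The count of genes called for drought in NIL-WT-72 was 3 by edgeR. It was 305 by DESeq2, 1 by voom, 309 with quality weights, 1 with only the 6 libraries compared and 200 without water replicate 1 and drought replicate 3. No other pair of libraries was left out. Leaving out 1 of the 12 libraries gave 0 to 55. It was also 3 with a robust prior, RLE size factors or a filter of 10 CPM in 3 libraries, which left 14005 genes. Leaving out the filterByExpr rule is the same fit, since it removed no gene, and is not counted among the 22 alternatives. The cause of these differences was not tested. With the replicate number as a block the count was 2 over 12 libraries and 27 within the 6 compared, and the adjusted p of Sobic.009G004900 was 0.0633 with the block over 12 libraries. For the third gene that fell it was 0.0539 with the block within the 6. Deviations of same-numbered libraries correlated at 0.0940, 0.219 and 0.270. Among differently numbered libraries, drought replicate 1 and water replicate 2 correlated at 0.121. The other such pairs correlated at -0.264 to -0.0295. The main fit did not assume pairing, and whether the replicate numbers mark pairs was not tested. None of the 5 genes shown by library reversed under the 22 alternatives. The number with an unadjusted p below 0.05, 1968, ranged from 983 without drought replicate 1 to 3659 with quality weights. A filter of 10 CPM left 80 genes at least 2-fold higher and 216 lower. DESeq2 fits with libraries left out and the counts of 2-fold changes were added after the data were seen. Depth limits genes near the floor of the table.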

Other observations

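By chromosome, an unadjusted edgeR p below 0.05 was reached by 12.6% of the 1131 tested genes of chromosome 5, beside 9.45% of all genes, and by 8.37% to 9.98% of the genes of the other chromosomes. DESeq2 called 2.83% of the genes of chromosome 5, 8 higher and 24 lower, beside 1.47% of all genes. The median standard error of a log2 fold change was 0.197 on chromosome 5 and 0.176 over all genes. Chromosome 4 had the lowest DESeq2 share, 1.02% of 2450 genes. Median log2 fold changes of the 10 chromosomes lay between -0.013 and 0.010.

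Genes next to each other in the order of the tested identifiers tended weakly to move together. The log2 fold changes of adjacent identifiers correlated with Pearson r = 0.108 and Spearman rho = 0.0796 over 20792 pairs, which share libraries and are not independent. Over identifiers 2 apart r was 0.0560, and over identifiers 5, 10 and 100 apart it was 0.0055, 0.0032 and 0.0027. Of the DESeq2-called genes with a chromosome, 12.5% (38 of 304) had an adjacent gene called in the same direction, beside 1.46% called among all such genes. For genes with separated groups these shares were 16.0% and 12.3%, and for genes changed at least 2-fold 14.5% and 3.18%. The first share counts a gene if the neighbour on either side was in the same set and direction. The second is the share of single genes in the set, in either direction, so the 2 are unlike measures. The 38 DESeq2-called genes formed 17 runs on 8 chromosomes, 7 higher and 10 lower. The longest run was of 4 lower genes on chromosome 5, with log2 fold changes from -1.16 to -0.51. A run of 3 on that chromosome, from -3.65 to -2.37, held the third gene called by edgeR. A run of 3 higher genes on chromosome 8 went from 0.91 to 1.25. Whether near-identical neighbours share reads in these counts was not tested.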
